A study of Mus musculus with 20 samples.

Results

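The comparison described here sets brain tissue taken 48 hr after conditioned fear (CF) training against tissue taken at baseline. It rests on 8 of the 20 arrays of the series, chosen by their labels, 4 at 48 hr and 4 at baseline, and each 48 hr array was compared with the baseline array of its own region and genotype. There were therefore 4 pairs of arrays, called strata here: WT amygdala, DKO amygdala, WT hippocampus and DKO hippocampus. WT mice were wild-type C57BL/6 mice, and DKO mice lack both AC1 and AC8, the calcium-stimulated adenylyl cyclases encoded by Adcy1 and Adcy8, on the same strain background. All were males aged 2 mo. Baseline mice received no treatment. The 48 hr mice had 1 training trial of 5 min with a single shock of 0.7 mA for 2 sec. RNA of 5 to 10 mice was pooled for each array, so that the spread between animals is not seen and each stratum has 1 array per time point. WT animals came from outside the litters of the DKO animals. The latter came from matings of an inducible AC8 rescue line held on doxycycline, and could carry either tetop-AC8 or CaMKII-tTA, the transgenes of that line, or none.

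AC1 and AC8 make cAMP when calcium enters a neuron, and cAMP acts through protein kinase A on transcription factors such as CREB. The amygdala stores the association of a place or tone with the shock, and the hippocampus encodes the context. The time of 48 hr was taken in the study as the stage of memory retention, after consolidation, and the comparison asks which transcripts then differ from baseline and whether they depend on calcium-stimulated cyclases.

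Values are log2 RMA values, on which a difference of 1 is a doubling, and are reported for 28853 transcript clusters, each a group of probes for a gene or part of one. Levels on this scale are compared between arrays for 1 cluster, never between genes. Array medians lay between 6.64 and 6.82 on the 8 arrays, and no array was a copy of another. Adcy8 stood at 7.26 and 7.09 at baseline and 48 hr in the WT amygdala and at 5.89 and 5.46 in the DKO amygdala, at 7.25 and 7.52 in the WT hippocampus and at 5.42 and 5.25 in the DKO hippocampus. Adcy1 stood at 8.26 and 8.38, 7.51 and 7.55, 9.04 and 9.23, and 7.71 and 7.73 in the same order. WT and DKO arrays did not overlap for either gene within a region, as their labels say, and no log2 change of either gene at 48 hr was beyond 0.44 in size. A list of 26 hippocampus-enriched genes had a mean level of 8.07 to 8.27 on the 4 hippocampal arrays and of 7.40 to 7.81 on the 4 amygdala arrays, so that regions and labels matched.

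The choroid plexus is the epithelium of the brain ventricles that secretes cerebrospinal fluid, and its genes were at lower levels at 48 hr than at baseline in all 4 strata. Of 23 measured genes on a list of choroid plexus markers, 21 were lower at 48 hr in every stratum, against 4.97% of all 19938 genes. None was 1.5-fold higher in any stratum. The median log2 change of the list was -0.55 in the WT amygdala, -0.44 in the DKO amygdala, -0.42 in the WT hippocampus and -0.95 for the DKO hippocampus, where the medians of all clusters were 0.031, -0.13, 0.056 and -0.087.

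Ecrg4, a secreted peptide precursor of choroid plexus epithelium, was at 9.14 at baseline and 6.81 at 48 hr in the WT amygdala, 9.25 and 8.62 for the DKO amygdala, 9.16 and 7.19 in the WT hippocampus, and 9.79 and 7.43 in the DKO hippocampus. Ttr, which encodes the thyroxine and retinol carrier transthyretin, was at 13.23 and 11.56, 13.04 and 12.68, 13.05 and 11.73, and 13.34 and 11.01. All 4 baseline arrays exceeded all 4 arrays at 48 hr for both genes, and the DKO amygdala showed the smallest difference. Clic6, an intracellular chloride channel protein, was at 7.78 and 6.22, 7.24 and 6.68, 7.05 and 5.66, and 7.73 and 5.46. Kcne2, a potassium channel subunit of the apical membrane, was at 7.60 and 6.49, 7.64 and 7.03, 7.52 and 6.14, and 8.08 and 5.91. Baseline and 48 hr arrays again did not overlap for either. Kl, which encodes the FGF23 co-receptor klotho, was at 7.74 and 6.95, 7.99 and 7.27, 7.65 and 7.06, and 8.22 and 6.76. F5, coagulation factor V, was at 6.44 and 5.62, 6.85 and 6.10, 6.23 and 5.62, and 6.62 and 5.34. For these genes too every baseline array lay above every array at 48 hr.

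With the 8 arrays alone in a limma model of stratum and time, 17 transcript clusters passed an adjusted p of 0.05 over the 4 strata (0.0589% of all clusters). All 17 were lower at 48 hr, and each was lower in all 4 strata. Of the 14 with a gene symbol, 9 were on the choroid plexus list, namely Ecrg4, Clic6, Kcne2, F5, Kcnj13, Ttr, Kl, Calml4 and Sostdc1. The other 5 were Trpm3, a cation channel that choroid plexus epithelium also expresses, Htr2c, a serotonin receptor abundant there, Mgp, an inhibitor of calcification, Cox8b, a subunit of cytochrome oxidase, and Sulf1, an extracellular sulfatase. The log2 change was -1.82 ± 0.19 (SE) for Ecrg4 with a limma adjusted p of 0.00057 and -1.44 ± 0.17 for Clic6 with a limma adjusted p of 0.0012. The fit takes the 4 strata as independent, although both regions of a genotype and time may come from the same mice. If they do, these SEs and p-values are too small.

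The main model of this comparison used all 20 arrays, so that the time points of 0 hr, 1 hr and 1 wk also entered the estimate of the spread. It called 0 of 28853 clusters (0%), with a smallest adjusted p of 1.00, and 1036 clusters were at an unadjusted p under 0.05, 215 higher and 821 lower. Of the 23 choroid plexus genes 0 passed and 16 were at an unadjusted p under 0.05, all lower. In this fit the change of Ecrg4 was -1.82 ± 0.62 (SE) and that of Ttr -1.42 ± 0.75. The levels at the other time points moved as well. For the WT amygdala the mean of the choroid plexus list was 7.61, 6.80, 6.65, 6.97 and 7.76 at baseline, 0 hr, 1 hr, 48 hr and 1 wk, and for the DKO amygdala 7.73, 6.78, 7.62, 7.29 and 7.67. In the WT hippocampus it was 7.51, 7.45, 7.66, 6.94 and 6.83, and in the DKO hippocampus 7.86, 7.63, 6.75, 6.74 and 6.68. Low levels like those at 48 hr were thus also seen at 0 hr in both amygdala strata and at 1 wk in both hippocampal strata. The 17 calls were also lost when the 8 arrays were quantile-normalized again, where the adjusted p of Ecrg4 was 0.80. After that normalization of all arrays the list medians were -0.65, -0.34, -0.47 and -0.81, and Ecrg4 differed by -2.28, -0.44, -2.09 and -2.26. With 1 array per condition the number of arrays limits the precision, and p-values measure only the spread between these arrays. In a micropunch, fewer cells of a type and less RNA per cell cannot be told apart. The part that choroid plexus in the punches has in the lower values was not tested.

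**Figure D1:**
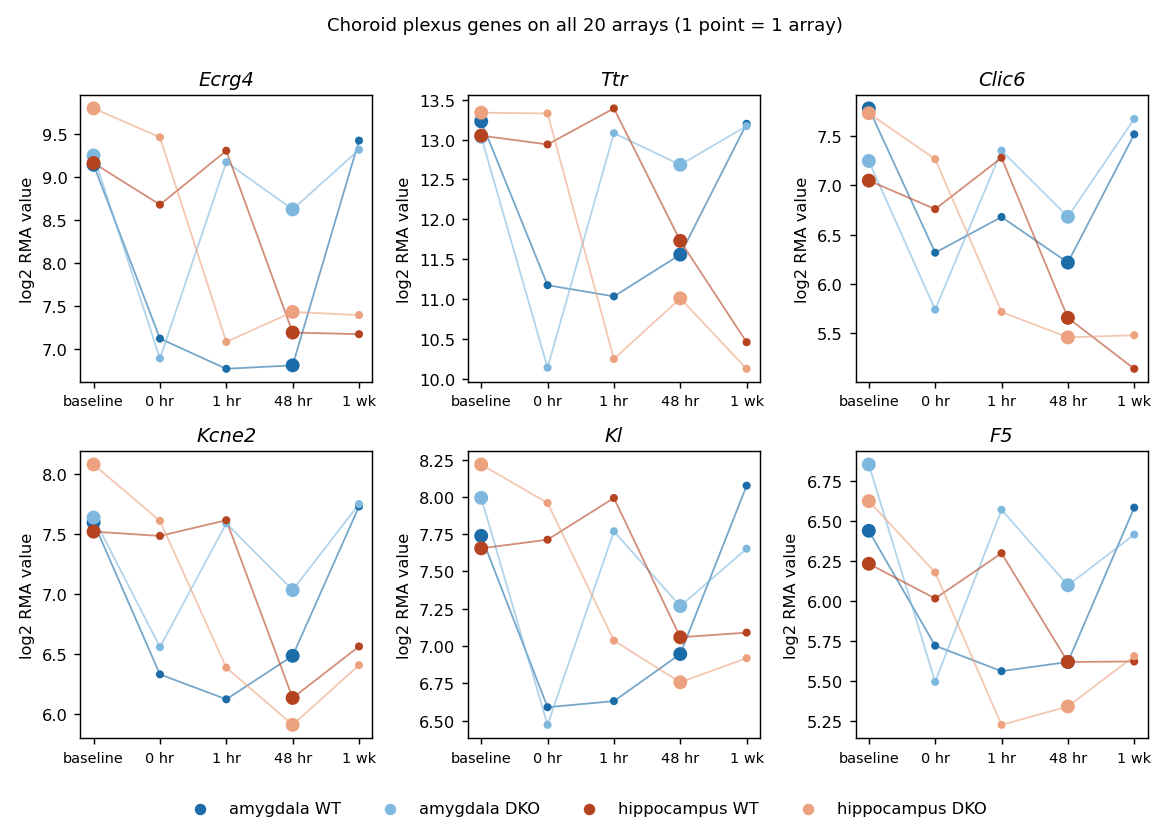
Log2 RMA values of 6 choroid plexus genes on all 20 arrays, with time on the x axis and 1 colour per region and genotype; large points are the baseline and 48 hr arrays and no error bar is drawn since each point is 1 array. The 4 large points at 48 hr lie below the 4 at baseline in each panel, and small points at other times reach the same low levels.

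At 1.5-fold, 10 genes were lower in 3 or 4 strata and 0 genes were higher in 3 or 4. They were Ecrg4, F5, Kcnj13, Kcne2, Clic6, Ttr, Trpm3, Kl, Cox8b and Calml4, 8 of them on the choroid plexus list, and 4 of the 10 reached the limit in all 4 strata. Ecrg4 was 5.02-fold lower in the WT amygdala, 1.54-fold in the DKO amygdala, 3.91-fold in the WT hippocampus and 5.14-fold in the DKO hippocampus. Kcnj13, an inwardly rectifying potassium channel of this epithelium, was at 9.54 and 8.57, 9.67 and 8.95, 9.35 and 8.85, and 9.76 and 8.66 at baseline and 48 hr in the order WT amygdala, DKO amygdala, WT hippocampus, DKO hippocampus. The list counted 11 genes lower by 1.5-fold in the WT amygdala, 5 in the DKO amygdala, 8 in the WT hippocampus and 18 for the DKO hippocampus. Across all genes 1.44%, 0.908%, 0.13% and 0.481% were that much lower in these strata. Otx2, the homeodomain factor of choroid plexus identity, differed by -1.01, -0.52, -0.13 and -0.61, and Aqp1, its water channel, by 0.14, -0.23, -0.09 and -0.65, so that members did not move by equal amounts.

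Marker lists of neighbouring cell types had medians nearer to 0, with some members lower. Of 24 genes of ependyma and motile cilia, the cells that line the ventricles, 3 were lower in every stratum, a larger share than the 4.97% of all genes. The list medians were 0.047, -0.17, -0.039 and -0.16 in the same order. Members 1.5-fold lower were Rsph4a and Spef2 in the WT amygdala, Dnah12 and Spef2 in the DKO amygdala, Spef2 in the WT hippocampus and Rsph4a in the DKO hippocampus. These are 8.33%, 8.33%, 4.17% and 4.17% of the list, beside 1.44%, 0.908%, 0.13% and 0.481% of all genes. Of 25 genes of meninges, fibroblasts and smooth muscle, 2 were lower in every stratum, also a larger share than the 4.97% of all genes. In the WT hippocampus 3 were lower by 1.5-fold, namely Acta2, Aldh1a2 and Lum (12% of the list, beside 0.13% of all genes). In the DKO amygdala 1 was, Dcn (4%, beside 0.908%). The medians of that list were 0.15, -0.14, -0.16 and -0.20. The difference between these lists and the choroid plexus list was not tested.

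The promoters of called genes are shown because CREB-type sites are the link between cAMP and transcription. Of the 14 genes with a symbol called with the 8 arrays, 9 had a promoter in the RefSeq table of build GRCm38.p6, each from 250 bases before the start on. The core of the cAMP response element, TGACG, searched on both strands, was found for 3 of the 9 genes and in 20.8% of 32851 promoters in the table. The share over the table is by promoter and that of the 9 by gene, and a gene can have several promoters. The full element TGACGTCA, which holds this core, was in none of the 9 and in 1.79% of all. The E-box CACGTG was in none and in 7.15%, and the Otx-type core TAATCC, added after the values were seen, in none and in 7.06%. The 3 promoters with the core follow, with its letters, or CGTCA where it lies on the other strand, in capitals.
Ecrg4, chr1:43730352-43730651, plus strand: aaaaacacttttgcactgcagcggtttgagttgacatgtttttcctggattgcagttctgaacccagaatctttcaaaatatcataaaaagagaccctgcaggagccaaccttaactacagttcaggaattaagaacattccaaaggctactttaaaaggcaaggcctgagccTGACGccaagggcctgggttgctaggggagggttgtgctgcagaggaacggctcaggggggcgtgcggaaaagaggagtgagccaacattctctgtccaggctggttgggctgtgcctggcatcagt
Kcne2, chr16:92292139-92292438, plus strand: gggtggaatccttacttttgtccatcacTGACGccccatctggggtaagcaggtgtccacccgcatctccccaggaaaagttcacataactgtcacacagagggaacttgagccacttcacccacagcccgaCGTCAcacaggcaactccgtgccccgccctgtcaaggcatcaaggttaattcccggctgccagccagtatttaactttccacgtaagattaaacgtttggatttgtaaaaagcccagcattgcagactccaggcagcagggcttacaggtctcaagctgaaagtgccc
Kcnj13, chr1:87394680-87394979, minus strand: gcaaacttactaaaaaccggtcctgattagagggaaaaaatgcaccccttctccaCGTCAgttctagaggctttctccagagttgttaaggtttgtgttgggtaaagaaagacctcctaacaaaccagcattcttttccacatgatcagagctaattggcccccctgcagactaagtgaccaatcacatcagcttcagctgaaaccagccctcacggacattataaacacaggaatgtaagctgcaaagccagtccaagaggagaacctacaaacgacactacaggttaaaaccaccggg
In this Kcne2 promoter the core occurs at 2 places, once on each strand. Another Kcne2 promoter, chr16:92295366-92295665, had 0 matches. A match is a description of letters and not a site of binding.

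Within single strata, counts rest on 1 array against 1 array and have no test, and a gene counts where any of its clusters passes. In the WT amygdala, 270 of 19938 genes were 1.5-fold or more higher (1.35%) and 288 lower (1.44%). In the DKO amygdala 24 were higher (0.12%) and 181 lower (0.908%). In the WT hippocampus 169 were higher (0.848%) and 26 lower (0.13%), and in the DKO hippocampus 15 were higher (0.0752%) and 96 lower (0.481%). These splits moved with scaling. After a further quantile normalization they were 125 higher and 328 lower in the WT amygdala, 94 and 73 for the DKO amygdala, 100 and 34 in the WT hippocampus and 24 and 57 in the DKO hippocampus, and after median centring 77 and 652, 92 and 47, 125 and 32, and 40 and 55. The excess of lower genes in the DKO amygdala thus turned to an excess of higher genes under both scalings, while the excess of higher genes in the WT hippocampus kept its direction.

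**Figure D2:**
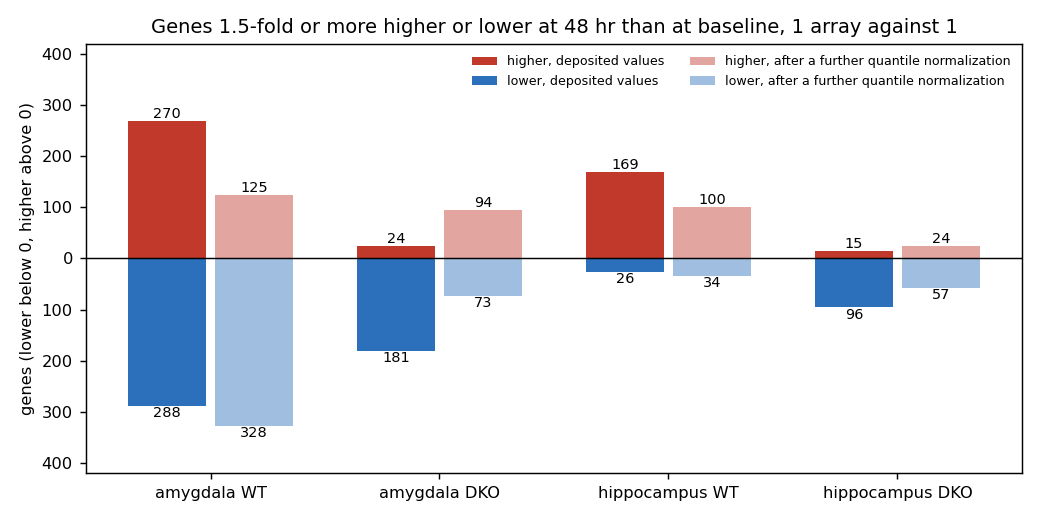
Number of genes at least 1.5-fold higher (above 0) or lower (below 0) at 48 hr than at baseline, by region and genotype, from the deposited values (solid) and after a further quantile normalization (pale). Each pair of bars compares 1 array with 1 array, so no error is drawn; the DKO amygdala goes from 24 higher and 181 lower to 94 and 73.

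The counts also moved with the reference. Set against the other 4 arrays of the stratum, 23 genes were higher and 65 lower in the WT amygdala, 18 and 143 for the DKO amygdala, 48 and 7 in the WT hippocampus and 12 and 29 in the DKO hippocampus. Of the 270 genes higher than baseline in the WT amygdala, 18 were also at least 1.5-fold higher than the mean of the other 4 arrays, and of the 169 in the WT hippocampus, 47 were.

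In WT mice, genes lower in the amygdala tended to be higher in the hippocampus. Across the 28853 clusters, which share the same 4 arrays and are not independent, Pearson's r between their changes was -0.45, and -0.38 after a further quantile normalization, whereas between the DKO amygdala and the DKO hippocampus it was 0.11. No array is shared by the changes that were correlated. Both regions of a genotype and time may still come from the same mice, which the sources do not state. There were 32 genes that were 1.5-fold lower in the WT amygdala and 1.5-fold higher in the WT hippocampus, which is 11.1% of the genes lower in the one, beside 0.848% of all genes, and 18.9% of those higher in the other, beside 1.44%. The reverse pattern was seen for 3 genes, Btnl5-ps, Gm10548 and Tns1. They are 1.11% of the genes higher in the WT amygdala, beside 0.13% of all genes, and 11.5% of those lower in the WT hippocampus, beside 1.35%. In both regions 8 genes were lower, all named above among the choroid plexus genes and Trpm3, and 0 were higher. The 8 are 2.78% of the genes lower in the WT amygdala, beside 0.13% of all genes, and 30.8% of those lower in the WT hippocampus, beside 1.44%. In the DKO mice the 33 clusters of these 32 genes had a median change of -0.014 in the amygdala and -0.023 in the hippocampus. Only 1 of them, Olfr43, was past 1.5-fold in the DKO amygdala, at 0.60, and 2 in the DKO hippocampus, Nts at -1.44 and Prkch at 0.59. Whether the genotypes differ in this pattern was not tested. The difference between the regions in the 48 hr change was tested in the 20-array fit over both genotypes, and 0 of 28853 clusters (0%) passed, with 1961 at an unadjusted p under 0.05. With the 8 arrays alone 2 passed (0.00693%), Prkch, a protein kinase C, and Tsen15, a subunit of the tRNA splicing endonuclease.

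**Figure D3:**
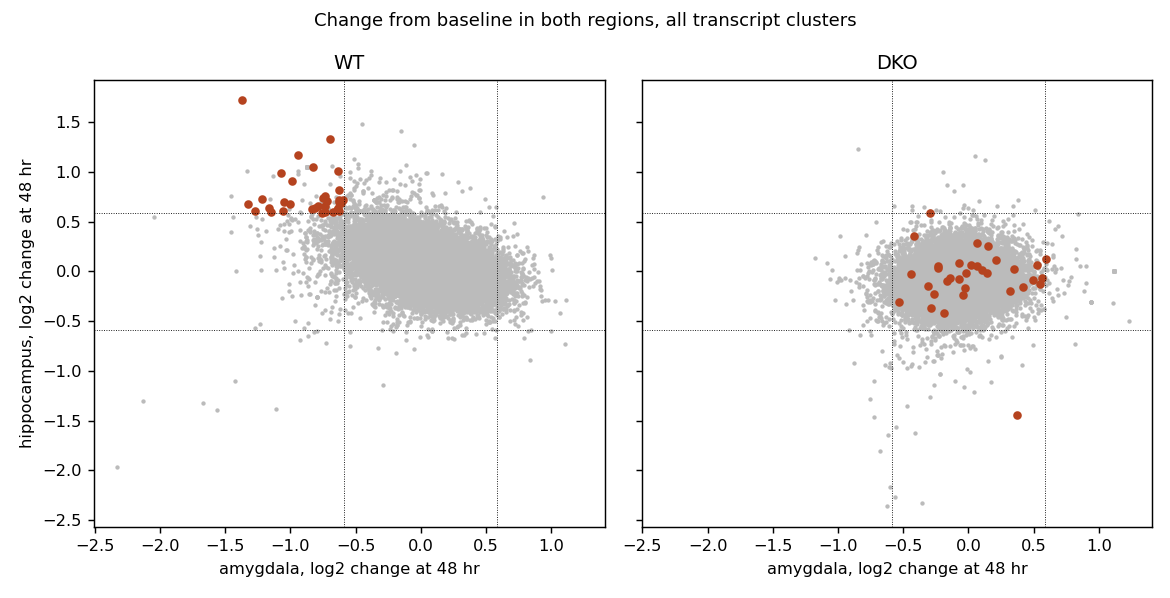
Log2 change at 48 hr from baseline in the amygdala (x axis) and the hippocampus (y axis) for all 28853 transcript clusters (grey), in WT on the left and DKO on the right; dotted lines mark 1.5-fold. Red points are the 33 clusters of the 32 genes lower in the WT amygdala and higher in the WT hippocampus, which were chosen by the left panel and lie around 0 in the right one.

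Peptides and receptors of inhibitory and striatal-type neurons were among these 32 genes. Tac1, the precursor of substance P, was at 10.91 at baseline and 9.84 at 48 hr in the WT amygdala, 9.58 and 10.00 for the DKO amygdala, 7.50 and 8.49 in the WT hippocampus, and 8.08 and 7.93 in the DKO hippocampus. Nts, the neurotensin precursor, was at 9.39 and 8.69, 8.76 and 9.14, 6.63 and 7.97, and 7.65 and 6.20. For Nts the 48 hr array of the WT hippocampus was above the other 4 of its stratum, which spanned 6.63 to 7.57. Gabrg1, a subunit of the GABA-A receptor, was at 9.84 at baseline in the WT amygdala, with a difference of -0.84 at 48 hr, and at 9.15 and 9.26, 7.70 and 8.33, and 8.04 and 8.05 in the other strata. Scn2a, a voltage-gated sodium channel, had 2 clusters on this list, at WT log2 differences of -0.63 and -0.61 for the amygdala and 0.64 and 0.68 for the hippocampus. Zfp931, a zinc finger gene, differed by -1.37 and 1.72. Others were Unc13c, a priming factor of synaptic vesicles, Meis2, a homeodomain factor of striatal-type neurons, Myo9a, an unconventional myosin, Ufm1, a ubiquitin-like modifier, and Srsf3, a splicing factor.

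Of the 44 measured neuropeptides and their receptors, 6 were 1.5-fold lower in the WT amygdala, namely Crh, Gal, Nts, Oprk1, Tac1 and Tac2, and 5 were 1.5-fold higher in the WT hippocampus, namely Crhbp, Grp, Nts, Penk and Tac1. These were 13.6% and 11.4% of the list, where 1.44% and 0.848% of all genes were that much lower or higher. The list as a whole was balanced in the WT amygdala, with 22 members above 0, 22 below it and a median of 0.013. Crh, the corticotropin-releasing hormone, was at 7.23 and 6.17 in the WT amygdala and at 6.17 and 6.31 in the DKO amygdala, and Penk, the enkephalin precursor, was at 9.73 and 10.67 in the WT hippocampus and at 9.35 and 9.51 in the DKO hippocampus. For Penk, the WT array at 48 hr was above the other 4 arrays of its stratum, which lay between 9.65 and 9.87. Grp, gastrin-releasing peptide, was at 7.60 and 8.33 in the WT hippocampus and at 7.86 and 7.12 in the DKO hippocampus, opposite differences of 0.74 and -0.75. Nts, Grp, Ccn3, Tshz2 and Gm19410 were the 5 genes that were 1.5-fold higher in the WT hippocampus and 1.5-fold lower in the DKO hippocampus. They are 2.96% of the genes higher in WT, beside 0.481% of all genes, and 5.21% of those lower in DKO, beside 0.848%. In both hippocampal strata 12 genes were lower and Prkch alone was higher. The 12 are 46.2% of the genes lower in WT, beside 0.481% of all genes, and 12.5% of those lower in DKO, beside 0.13%. In limma, WT minus DKO in the 48 hr change over both regions was 0.83 ± 0.28 (SE) for Grp and 0.86 ± 0.71 for Nts. The limma adjusted p was 0.33 and 0.58. This fit averages the amygdala with the hippocampus, so that it does not test the hippocampal difference alone. For Nts the amygdala changes ran the other way, lower in WT and higher in DKO. No gene was past 1.5-fold in one direction in both WT strata and in the other in both DKO strata.

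**Figure D4:**
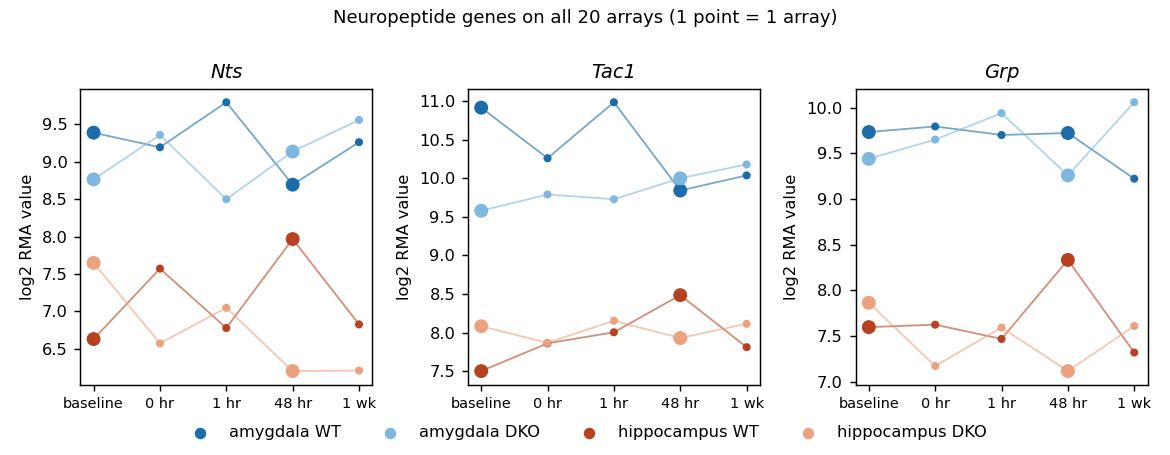
Log2 RMA values of Nts, Tac1 and Grp on all 20 arrays, with time on the x axis and 1 colour per region and genotype; large points are the baseline and 48 hr arrays and each point is 1 array. Nts and Grp at 48 hr lie above baseline in the WT hippocampus (7.97 and 8.33) and below it in the DKO hippocampus (6.20 and 7.12).

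Several markers of striatal neurons were also lower in the WT amygdala. Of 28 measured markers of striatal projection neurons, 9 were 1.5-fold lower there, namely Adcy5, Drd1, Meis2, Pde10a, Rasd2, Rasgrp2, Rgs9, Strn and Tac1, which is 32.1% of the list beside 1.44% of all genes. The list mean was 8.24 at baseline and 7.85 at 48 hr in the WT amygdala, 7.74 and 7.71 for the DKO amygdala, and between 7.13 and 7.28 on the 4 hippocampal arrays. The baseline array of the WT amygdala was thus the highest of the 8. It did not stand apart from all other times of its stratum. The list mean there was 8.21 at 1 hr, close to baseline, and 7.81 at 1 wk, close to 48 hr, with 0 hr in between. Drd1, the D1 dopamine receptor, was at 9.60 at baseline and at 8.74 at 48 hr in the WT amygdala. In the WT hippocampus 3 of these genes were 1.5-fold higher, Meis2, Penk and Tac1 (10.7%, beside 0.848% of all genes). In the DKO hippocampus, 3 of 24 thalamus-enriched genes were 1.5-fold higher, Prkcd, Ramp3 and Slitrk6, at log2 differences of 0.60, 0.87 and 1.12. That is 12.5% of the list beside 0.0752% of all genes, and the list mean was 7.62 at baseline and 7.82 at 48 hr. The part that striatal or thalamic tissue in the punches has in these differences was not tested.

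Several microRNA genes were among the lower genes of the WT amygdala. The mature sequences of 3 of them named by rule, Mir376b, Mir186 and Mir690, and of Mir495, chosen after its values were seen, are given with those of Mir181b-2, which was higher there, with bases 2 to 8, the seed, in capitals (RefSeq, GRCm38.p6).
mmu-miR-376b-3p: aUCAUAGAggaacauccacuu
mmu-miR-376b-5p: gUGGAUAUuccuucuaugguua
mmu-miR-186-5p: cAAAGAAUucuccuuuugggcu
mmu-miR-186-3p: gCCCUAAGgugaauuuuuuggg
mmu-miR-690: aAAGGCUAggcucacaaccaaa
mmu-miR-495-3p: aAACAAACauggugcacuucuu
mmu-miR-495-5p: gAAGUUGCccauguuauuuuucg
mmu-miR-181b-5p: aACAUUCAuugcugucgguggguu
mmu-miR-181b-2-3p: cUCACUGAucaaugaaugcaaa
The 9 sequences have 9 distinct seeds. The array reads the gene or its precursor and does not tell which arm is present.

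Of 300 genes with a microRNA symbol, 18 were 1.5-fold lower in the WT amygdala and 6 higher, and in the DKO amygdala 1 was lower and 2 higher. The 18 are 6.0% of the list, beside 1.44% of all genes, and the 6 are 2.0% beside 1.35%. In the DKO amygdala the shares were 0.33% beside 0.908% lower and 0.67% beside 0.12% higher. Mir376b was at 7.01 at 48 hr in the WT amygdala, a difference of -0.99 from baseline. It was at 6.72 and 6.44 in the DKO amygdala, 6.38 and 7.28 in the WT hippocampus, and 6.79 and 6.42 in the DKO hippocampus. Mir186 was at 5.92 and 4.77, 4.69 and 4.65, 4.92 and 5.52, and 5.27 and 5.03, and Mir690 at 6.56 and 5.93, 6.13 and 5.82, 5.64 and 6.45, and 6.03 and 5.88. In both, as for Mir376b, the WT amygdala was lower and the WT hippocampus higher. Position was shared by part of them: 39 of the microRNA genes lie between Dlk1 and Dio3 (chr12:109452485-110281097, GRCm38.p6), an imprinted domain with a large microRNA cluster, and 7 of these were 1.5-fold lower in the WT amygdala, against 10 of the 219 placed elsewhere. This region was looked at after the values were seen. The median change of the 39 was -0.095 in the WT amygdala and 0.077 in the WT hippocampus, and of the 219 it was 0.096 and -0.014. Mir495 and Mir154 of this region differed by -1.19 and -0.99 in the WT amygdala and by 0.41 and 0.52 in the WT hippocampus. Mir181b-2, a locus of miR-181b, was higher in every stratum, at 7.36 and 7.71, 7.07 and 7.62, 7.08 and 7.47, and 7.57 and 7.75, with a mean log2 change of 0.37 ± 0.10 (SE) that did not pass (limma adjusted p of 1.00). Mir181b-1, the other locus of miR-181b, was not higher throughout. Its log2 differences were -0.78, -0.10, 0.13 and -0.24 in the same order, and it was one of the 18 lower in the WT amygdala.

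In the deposited values, WT and DKO mice differed in the direction of the whole distribution, a difference that was not tested. The median log2 change of all clusters was 0.031 and 0.056 in the WT amygdala and hippocampus and -0.13 and -0.087 in the DKO amygdala and hippocampus. After a further quantile normalization these medians lay between -0.0066 and 0.012, so that scaling moved the DKO amygdala by more than 0.1. In the deposited values 55.2% and 63.5% of all genes were above 0 in the WT amygdala and hippocampus. In the DKO amygdala and hippocampus 22.4% and 26.1% were. With shares so far apart, 15.6% of genes were higher in both WT strata and lower in both DKO strata, and 0.707% had the reverse pattern. These 2 shares carry the shift of the whole arrays and were not recomputed after scaling, so they are not a result about single genes. In the 20-array fit the change in WT called 0 clusters (0%) with 1424 at an unadjusted p under 0.05, 1225 of them higher, and the change in DKO called 0 (0%) with 3741 at that p, 3560 of them lower. WT minus DKO called 0 (0%) with 3767 at that p, 3648 of them higher in WT. Within the amygdala and within the hippocampus 0 clusters (0%) were called, with 2111 and 837 at an unadjusted p under 0.05. With the 8 arrays alone 16 (0.0555%) and 17 (0.0589%) were called within the amygdala and the hippocampus, 15 (0.052%) and 17 of them lower.

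Gene lists of neuronal signalling were therefore read relative to the median of all clusters. The 43 immediate early genes, which neuronal activity induces within minutes, had a median 0.16 above it in the WT amygdala, 0.0021 above it in the DKO amygdala, 0.034 above it in the WT hippocampus and 0.0031 above it in the DKO hippocampus. Only Atf3 was 1.5-fold higher, in the WT amygdala, and only Gadd45g 1.5-fold lower, in the DKO amygdala. Each is 2.33% of the list, beside 1.35% and 0.908% of all genes. Fos was at 6.13 and 6.46, 6.50 and 6.22, 6.63 and 6.43, and 6.36 and 6.40 at baseline and 48 hr in the order WT amygdala, DKO amygdala, WT hippocampus, DKO hippocampus. Arc, a synaptic cytoskeletal gene, was at 7.31 and 7.68, 7.55 and 7.40, 7.63 and 7.67, and 7.53 and 7.58, and Bdnf, a neurotrophin, at 6.67 and 6.88, 6.93 and 6.62, 7.20 and 7.30, and 7.41 and 7.15. None of these 3 genes differed by 1.5-fold in any stratum.

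Of 37 genes of the adenylyl cyclase and cAMP pathway, 3 were 1.5-fold lower in the WT amygdala (8.11%, beside 1.44% of all genes), Adcy5, Pde10a and Prkar2a, of which the cyclase Adcy5 and the phosphodiesterase Pde10a are also on the striatal list. The phosphodiesterase Pde1a was 1.5-fold higher in the WT hippocampus (2.70%, beside 0.848%), and no member passed the limit in either DKO stratum. Slc11a2, a metal transporter, differed by 0.019, 0.0096, 0.15 and 0.12, and Lynx1, a modulator of nicotinic receptors, by -0.20, -0.39, 0.12 and 0.045. Of 24 genes of GABA receptors and interneurons, 3 were 1.5-fold higher in the WT hippocampus (12.5%, beside 0.848%), Gabra3, Gabrg1 and Gabrg3, and the list lay 0.20 above the median of all clusters there and at -0.21 from it in the WT amygdala. After a further quantile normalization its medians there were 0.14 and -0.080. Of 37 genes of glutamate receptors and the postsynaptic density, Grm8 and Homer2 were 1.5-fold higher in the WT hippocampus (5.41%, beside 0.848%). Shank2 was higher and Grik1 lower in the WT amygdala (2.70% each, beside 1.35% and 1.44%). Grin2a was lower in the DKO amygdala (2.70%, beside 0.908%). Of 26 hippocampus-enriched genes, 4 were 1.5-fold higher in the WT amygdala, Dsp, Lefty1, Prox1 and Tdo2 (15.4%, beside 1.35% of all genes). In the DKO amygdala 2 were lower by that much, Cpne7 and Spink8 (7.69%, beside 0.908%). In the WT hippocampus 2 were higher, Spink8 and Wfs1 (7.69%, beside 0.848%). The part that hippocampal tissue in the punches has in these differences was not tested. Spink8 was at 9.23 and 10.12 in the WT hippocampus, above the other 3 arrays of its stratum at 9.60 to 9.84. It was at 9.19 and 8.60 in the DKO amygdala.

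Several of the other lists held few members past 1.5-fold. There were 0 among 21 astrocyte, 20 circadian clock, 25 neurotrophin and growth factor, 29 chromatin and 39 proteasome genes in any stratum. Of all genes 0.0752% to 1.44% were past the limit per direction and stratum. For lists this small, 0 is near that share and is not a result about these genes. Microglia, endothelium and blood, heat shock chaperones and endoplasmic reticulum stress had 1 lower gene each, all in the WT amygdala (Ptprc, Slco1a4, Chordc1 and Dnajb9). These are 4.35%, 5.88%, 4.17% and 3.85% of the lists, beside 1.44% of all genes. The interferon list had Ifit3 lower in the DKO amygdala (4.55%, beside 0.908%). Of 54 small nucleolar RNA genes, 4 were 1.5-fold higher in the WT hippocampus (7.41%, beside 0.848%). In the WT amygdala 2 of them were lower (3.70%, beside 1.44%), and in the DKO amygdala 1 was (1.85%, beside 0.908%). Ribosomal protein, respiratory chain and proteasome lists lay 0.12, 0.14 and 0.15 above the median of all clusters in the WT hippocampus, and each at -0.12 from it in the WT amygdala. After a further quantile normalization their medians were 0.035, 0.047 and 0.071 in the WT hippocampus and -0.00068, 0.0081 and 0.018 in the WT amygdala. Clusters above the median level shared the shift in the deposited values, with medians of 0.12 and -0.062 in these strata. Of 347 Zfp zinc finger genes 20 were 1.5-fold lower in the WT amygdala (5.76%, beside 1.44% of all genes) and 6 higher in the WT hippocampus (1.73%, beside 0.848%). Of 1414 chemoreceptor and epithelial genes, which are little expressed in brain, 25 were 1.5-fold higher in the WT amygdala, a share of 1.77% near the 1.35% of all genes. In that stratum 3 were lower, a share of 0.212% below the 1.44% of all genes. In the DKO amygdala 10 were higher and 14 lower, 0.707% and 0.99% beside 0.12% and 0.908% of all genes.

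**Figure D5:**
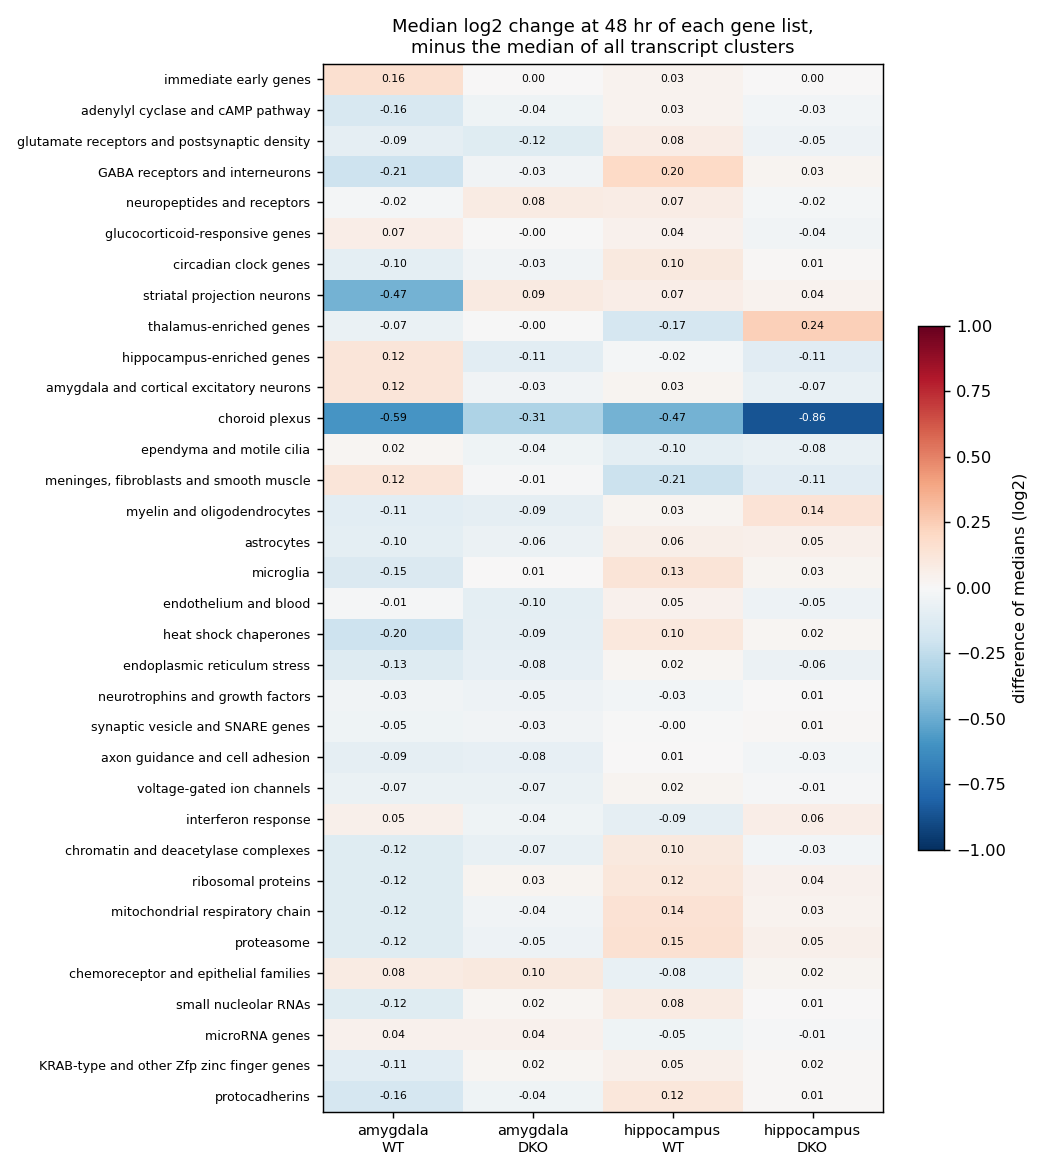
Median log2 change at 48 hr of the genes of each of 34 lists (rows) minus the median of all transcript clusters, in each region and genotype (columns), as a colour scale with the value printed. The choroid plexus list is below 0 in all 4 columns (-0.59, -0.31, -0.47 and -0.86) and the striatal list reaches -0.47 in the WT amygdala.

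The largest single-stratum differences among genes above the median level included some not yet named. In the WT hippocampus Vwc2l, a secreted protein of the BMP pathway, went from 6.21 to 7.61, Sema3a, an axon guidance factor, from 6.33 to 7.60 and Resp18, an endocrine secretory protein, from 7.21 to 8.33. Sema3a and Vwc2l were above the other 3 arrays of the stratum, which reached 6.99 and 7.37. In the WT amygdala Unc13c went from 8.11 to 6.65 in the cluster with the largest difference and Pgap1, an enzyme of GPI anchors, from 8.36 to 6.92. In the DKO amygdala Mpp7, a scaffold protein, went from 7.01 to 7.74 and Serpind1, a serine protease inhibitor, from 7.88 to 8.56, while Ptpn3, a tyrosine phosphatase, went from 6.76 to 5.74 and Iqgap2, a scaffold of the actin cytoskeleton, from 9.30 to 8.36. In the DKO hippocampus Ramp3, a receptor activity modifier, went from 7.39 to 8.26 and Usp17ld, which has near-identical copies that may share its probes, from 6.02 to 6.82.

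The smallest p-values over the 4 strata in the 20-array fit belonged to genes with small differences of 1 direction. The lower ones were Cwc22, a splicing factor, at -0.41 ± 0.09 (SE), Abhd2, a lipase, at -0.36 ± 0.08, Rab1b, a GTPase of transport from the endoplasmic reticulum, at -0.30 ± 0.07, Syne2, a nuclear envelope protein, at -0.46 ± 0.11, and Anxa4, an annexin, at -0.37 ± 0.09. The higher ones besides Mir181b-2 were Cyp2d11, at 0.41 ± 0.10, Dnah3, a dynein of cilia, at 0.36 ± 0.09, Fcgr4, an immunoglobulin receptor, at 0.33 ± 0.09, and Vmn2r23, a vomeronasal receptor, at 0.40 ± 0.11. All 5 of the lower and all 5 of the higher genes had the same direction in every stratum, and none passed, with limma adjusted p of 1.00 for each. Cyp2d11 belongs to a family of near-identical copies, and its value is uncertain for that reason.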

How the data were processed

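RNA from micropunches was hybridised to Affymetrix Mouse Gene 1.0 ST arrays, and the authors deposited log2 values made with Expression Console by RMA; its version and the genome build of the annotation are not given in the sources used here. These values were used as deposited. Transcript clusters with 1 gene symbol in the platform annotation (21789 of 28853) stood for 19938 genes, and 1621 clusters had several symbols and 5443 none. A model of stratum and time was fitted to all 20 arrays in limma 3.58.1 under R 4.3.3, and p-values were adjusted by Benjamini-Hochberg across the clusters at a limit of 0.05. Single strata have 1 array per time, so 1.5-fold differences are given without a test. Python 3.11.15 with pandas 2.3.3 was used for the rest. The limma step was checked on simulated data. The comparison, its members and the gene lists were chosen with earlier results of these data known. Genes were named where called or of smallest p, among the 5 largest differences per direction and stratum above the median level, past 1.5-fold in 3 strata, or as leading list members, with Adcy1, Adcy8, Slc11a2 and Lynx1. Any other gene named was chosen after its values were seen. Of 35 lists, the histone list matched no symbol. The alternatives were the 8 arrays alone, other scaling, filters, weights, references and fold limits, and each array left out.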

Additional observations from a re-analysis of the deposited data

Results flagged for a closer look

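Among the 4 changes from baseline, 1 lay far from the other 3 by Dixon's limit for 6 of the 76 named transcript clusters and 1 of the 34 lists. Chance marks about 1 in 20 groups, but that rate does not hold for Ccdc9b, Krtap10-10, Pgap1, Unc13c and Sema3a, which were named for a large difference in 1 stratum, so that their values are a description only. In the WT amygdala these were Ccdc9b at a log2 change of 0.88, Dnah3 at 0.63, Krtap10-10 at 1.03, Pgap1 at -1.44 and a cluster of Unc13c at -1.45. In the WT hippocampus they were Sema3a at 1.27 and the list of small nucleolar RNAs, with a median of 0.14.

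WT and DKO moved in opposite directions in both regions for the median of all clusters, at 0.031 and 0.056 in the WT amygdala and hippocampus and -0.13 and -0.087 in the DKO amygdala and hippocampus. That difference was not tested. Among named genes, WT minus DKO in the 48 hr change was 0.94 for Iqgap2, 0.72 for Rhox6 and 1.01 for Spink8, with limma adjusted p of 0.32, 0.33 and 0.32.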

How the results depend on the processing

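The main model with all 20 arrays made no call, and 106 of 116 recomputed counts of calls stayed at 0. With the 8 arrays alone 17 clusters passed over the 4 strata, while amygdala and hippocampus taken alone gave 16 and 17 and their difference gave 2, and 12 of the named clusters passed there alone; with a further quantile normalization of the 8 arrays, added after seeing the data, 0 passed over the 4 strata. A trended and robust fit of all 20 arrays called 1 cluster in WT, 1 in DKO and 1 for WT minus DKO. Leaving out 1 array gave 0 to 1 call in WT, 0 to 1 in DKO and 0 to 2 for WT minus DKO: Trdn without the WT hippocampus at 48 hr, Olfr1505 without the DKO hippocampus at 48 hr, and Ccn3 and a cluster with no symbol without the WT amygdala at 48 hr. The random block of genotype and time could not be fitted for WT, DKO and WT minus DKO. With the 8 arrays alone and the stratum as a term, each 48 hr array was paired with its own baseline, with 3 residual degrees of freedom. All 408 recomputed list medians moved by less than the SD over the 4 strata. That limit is wide where strata differ in direction, and a median that turned its sign within it does not count as moved. Leaving out either array of a stratum gave the same list median, which was entered for each of them. The count is therefore not a measure of how stable the lists are.

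Of 32 recomputed counts of genes past the fold limit, 11 stayed within 1.5 times. In the order WT amygdala, DKO amygdala, WT hippocampus, DKO hippocampus, 2-fold gave 38, 1, 16 and 20 genes, 1.3-fold 2928, 1785, 1284 and 909, and transcript clusters in place of genes 957, 411, 357 and 173. Genes above the median level numbered 282, 87 and 50 in the WT amygdala, DKO amygdala and DKO hippocampus. Baseline with 0 hr as reference gave 171, 124 and 98 in the WT amygdala, DKO amygdala and WT hippocampus, and the other 4 arrays as reference 88, 55 and 41 in the WT amygdala, WT hippocampus and DKO hippocampus.

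The mean log2 change over the 4 strata turned its sign in 134 of 1195 recomputed values of named clusters, 130 of them in clusters whose change was within its SE. The other 4 were Ciart against baseline and 0 hr, Rhox6 without the WT amygdala at 48 hr (-0.052), Sema3a without the WT hippocampus at 48 hr (-0.037) and Vwc2l without the WT hippocampus at baseline (-0.073). With baseline and 0 hr as reference these were Ciart -0.037, Krt17 0.049, Mpp7 0.068, Olfr118 0.0053, Pgap1 -0.084, Prp2 0.019, Spink8 -0.035 and Unc13c 0.027. With quantile normalization they were Gabrg1 0.042, Grp 0.033, Krt17 0.012, Meis2 0.066, Mpp7 0.057, Prkcd 0.027, Prp2 0.036, Scn2a 0.0053 and 0.034, Snord42a 0.025, Unc13c 0.046 and 0.076 and Zfp35 0.0086. With median centring they were Gabrg1 0.0033, Krt17 0.020, Meis2 0.0049, Mpp7 0.013, Olfr118 0.0046, Prkcd 0.0045, Scn2a 0.0056, Snord42a 0.023, Unc13c 0.013 and Zfp35 0.0026, and with array weights Gabrg1 0.043, Krtap10-10 -0.026, Meis2 0.027, Mir99ahg 0.0078, Mpp7 0.0083, Prkcd 0.22, Snord42a 0.053, Unc13c 0.27 and 0.15 and Zfp35 0.072. Leaving out 1 array gave the ranges Fggy -0.063 to 0.24, Gabrg1 -0.20 to 0.20, Grp -0.33 to 0.12, Iqgap2 -0.41 to 0.066, Krt17 -0.15 to 0.24, Krtap10-10 -0.14 to 0.27, Meis2 -0.28 to 0.13, Mir186 -0.41 to 0.074, Mir376b -0.52 to 0.043, Mir690 -0.30 to 0.068, Mir99ahg -0.35 to 0.20, Mpp7 -0.22 to 0.14, Myo9a -0.065 to 0.47, Nts -0.47 to 0.25, Olfr118 -0.23 to 0.26, Olfr43 -0.030 to 0.47, Pgap1 -0.18 to 0.32, Prkcd -0.28 to 0.10, Prp2 -0.27 to 0.13, Ramp3 -0.19 to 0.25, Rhox6 -0.052 to 0.25, Scn2a -0.23 to 0.11 and -0.17 to 0.21, Sema3a -0.037 to 0.36, Slitrk6 -0.13 to 0.37, Snord42a -0.21 to 0.17, Spink8 -0.11 to 0.33, Srsf3 -0.076 to 0.33, Tac1 -0.18 to 0.28, Trim13 -0.035 to 0.29, Unc13c -0.29 to 0.38 and -0.15 to 0.22, Vwc2l -0.073 to 0.45, Zfp35 -0.21 to 0.13, Zfp617 -0.41 to 0.11, Zfp931 -0.46 to 0.28. The cause was not tested.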
